A study of Mus musculus with 17 samples.

Results

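Macrophage migration inhibitory factor (MIF) and its homologue D-dopachrome tautomerase (DDT) form a small family of cytokines, which bind to the cell surface through CD74. The genes described here are the ligands Mif and Ddt and 4 genes of receptors that act with or beside CD74, namely Cd44, Cxcr2, Cxcr4 and Ackr3. The genes were listed by name, with no threshold on a measured value, and their symbols were matched to the gene identifiers of the count tables. All 6 were found in every library, out of 53313 gene identifiers that the tables had in common. CD74 has a short tail and signals through CD44, which is also the main receptor of hyaluronan. CXCR2 and CXCR4 are chemokine receptors of leukocytes that bind MIF as well as their own chemokines, and ACKR3 is an atypical receptor that takes up CXCL12 and recruits arrestins. In the kidney MIF and DDT are known as products of the tubular epithelium.

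RNA was sequenced from primary tubular epithelial cells (PTEC) in culture and from whole kidney of male wild-type mice, C57BL/6Rj in the labels and C57BL/6JRj in the study's methods. The 4 non-senescent PTEC cultures were taken at day 6 without irradiation and the 4 senescent PTEC cultures at day 16 after 10 Gy, and the effect of irradiation cannot be told apart from that of the longer culture. PTEC were grown from tubular fragments of collagenase-digested kidneys and irradiated once confluent. The kidneys came from 3 mice each aged 3, 12 and 24 months, and a part of 1 kidney per mouse was used. No source used here states that the cultures came from separate animals, and p-values between PTEC measure the spread between these cultures. Between 26963442 and 35409144 reads were counted on genes in PTEC, between 37311247 and 49471409 in 3-month-old kidneys and between 54097073 and 66894790 in older kidneys. PTEC held little of the RNA that marks the mature proximal tubule, with 167 to 756 CPM summed over 12 markers in non-senescent and 164 to 349 CPM in senescent cultures, beside 11961 to 22452 CPM in kidneys. Relative expression is given as CPM, counts relative to library size after TMM scaling within PTEC or within kidneys.

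Mif (ENSMUSG00000033307) lies at chr10:75859353-75860240 and Ddt (ENSMUSG00000001666) at chr10:75771230-75773414 of GRCm38, both on the minus strand and 85939 bases apart. Cd44 (ENSMUSG00000005087) lies at chr2:102811141-102901665 on the minus strand. The chemokine receptor genes are all on chromosome 1, Cxcr2 (ENSMUSG00000026180) at chr1:74153989-74161246 on the plus strand, Ackr3 (ENSMUSG00000044337) at chr1:90203980-90216751 on the plus strand and Cxcr4 (ENSMUSG00000045382) at chr1:128588199-128592293 on the minus strand. Counts were made per gene over all exons, so the splice forms of Cd44 were not told apart. Mif has 5 annotated processed pseudogenes that match its transcript at 91.0% to 99.1% of aligned bases, Gm10169, Gm16379, Mif-ps3, Gm8762 and Gm5228. Their summed counts were 0.243% to 0.876% of those of Mif, and how the counting shared reads among them is not stated. Ddt shares 232 of its 773 exon bases (30.0%) with the readthrough gene Gm20441, which held 0 or 1 count in each library. Reads in the shared exon may have been left out, and the level of Ddt may be understated in all groups.

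The sequences upstream of Mif, Ddt and Cd44 are shown because these 3 genes were down-regulated in senescent PTEC. Each is the 250 bases before the RefSeq start of the gene on GRCm38.p6, written 5′ to 3′ on the gene's strand, with motif matches in capitals. For Mif and Ddt this start differs from the GENCODE position given above. The Ddt window reaches into the gene as placed there, and the Mif window begins beyond it. Motif positions are counted from the RefSeq start.
Mif, chr10:75860278-75860527: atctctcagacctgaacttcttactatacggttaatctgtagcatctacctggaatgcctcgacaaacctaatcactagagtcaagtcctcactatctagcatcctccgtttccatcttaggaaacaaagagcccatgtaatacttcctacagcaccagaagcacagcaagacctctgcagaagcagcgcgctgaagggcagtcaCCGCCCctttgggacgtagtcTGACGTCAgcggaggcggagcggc
Ddt, chr10:75773375-75773624: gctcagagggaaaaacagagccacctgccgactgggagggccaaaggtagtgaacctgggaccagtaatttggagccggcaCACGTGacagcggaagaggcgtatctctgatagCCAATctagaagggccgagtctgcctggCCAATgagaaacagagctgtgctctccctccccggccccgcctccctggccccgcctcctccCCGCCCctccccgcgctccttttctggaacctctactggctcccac
Cd44, chr2:102901666-102901915: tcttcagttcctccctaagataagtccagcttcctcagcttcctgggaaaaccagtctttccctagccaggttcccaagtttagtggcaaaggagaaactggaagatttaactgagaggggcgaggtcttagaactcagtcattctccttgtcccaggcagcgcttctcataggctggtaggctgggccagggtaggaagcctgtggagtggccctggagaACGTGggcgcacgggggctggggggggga
A total of 6 motifs were searched on both strands. They were the cyclic AMP response element TGACGTCA, the GC box GGGCGG, the hypoxia response core ACGTG, the CCAAT box CCAAT, the AP-1 motif TGANTCA and the TATA box TATAAA. The Mif window held TGACGTCA at position -24, which 1.56% of 32536 promoter windows of this length held, and a GC box at -45 (33.0% of windows). The Ddt window held a GC box at -46, the motif CCAAT at -136 and -108 (33.8% of windows), and ACGTG from -168 and, on the other strand, from -169 (16.7% of windows), which overlap as CACGTG. The Cd44 window held ACGTG at -29. No motif of the 6 was in all 3 windows. A match describes the letters of the window and not a bound site.

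The comparison of senescent with non-senescent PTEC asks how the genes changed in tubular cells once they had become senescent. Both ligands and Cd44 were down-regulated, while Cd74 (MIF receptor) was up-regulated from a low level. Out of 5 members tested, 3 were called lower and 0 higher with edgeR's quasi-likelihood test. A call required an adjusted p below 0.05 together with a log2 fold change of more than 0.5 in either direction. Over all 15434 genes tested 19.7% were called lower and 20.1% higher. With so many genes changed, a call in this comparison is common.

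Mif stood at 194, 221, 404 and 215 CPM in the 4 non-senescent cultures and at 89.7, 80.9, 153 and 102 CPM in the 4 senescent cultures. The groups did not overlap, and culture 3 was highest in each. The log2 fold change was -1.28 (95% CI -1.90 to -0.66), a level 2.43-fold lower in senescent PTEC, with an adjusted p of 0.00487. Without the non-senescent culture 3 the log2 fold change was -0.98 with an adjusted p of 0.00505.

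Ddt encodes the second ligand of CD74, an enzyme-like protein with the fold of MIF. It was expressed at 13.8, 13.3, 27.6 and 17.98 CPM in non-senescent and at 10.4, 10.6, 12.9 and 12.1 CPM in senescent PTEC. The lowest non-senescent culture lay at 13.3 CPM against 12.9 CPM in the highest senescent culture, so the groups came close without overlap. Its log2 fold change was -0.66 (95% CI -1.19 to -0.13) with an adjusted p of 0.0471. This call ended when non-senescent culture 3 or 4 or any of the senescent cultures was left out, with an adjusted p of up to 0.118, and without non-senescent culture 3 the log2 fold change was -0.38. With the cultures paired by number the adjusted p was 0.0126.

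Cd44, the signalling partner of CD74, had the most RNA of the 4 receptor genes in PTEC, also per length. It stood at 491, 462, 248 and 307 CPM in non-senescent and at 205, 219, 176 and 207 CPM in senescent PTEC. The non-senescent cultures were spread over a wide range and the senescent cultures over a narrow one, without overlap. Its log2 fold change was -0.90 (95% CI -1.39 to -0.41), a level 1.87-fold lower, with an adjusted p of 0.00851. Culture 3, highest in Mif, was the lowest in Cd44 in each group.

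Ackr3 was expressed at 5.35, 6.37, 12.4 and 18.8 CPM in non-senescent and at 20.9, 25.1, 12.5 and 14.5 CPM in senescent PTEC. The groups overlapped, and cultures 1 and 2, lowest among the non-senescent, were highest among the senescent. A log2 fold change of 0.77 (95% CI -0.12 to 1.65) did not pass the test, with an adjusted p of 0.144. Without non-senescent culture 4 it was 1.18 with an adjusted p of 0.0285.

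Cxcr4 and Cxcr2, both known from leukocytes, were at or near the limit of detection in PTEC. Cxcr4 had 7 to 36 counts per non-senescent culture and 10 to 28 counts per senescent culture, or 0.27 to 1.18 CPM and 0.27 to 0.94 CPM. Its log2 fold change of -0.51 (95% CI -1.66 to 0.64) did not pass the test (adjusted p = 0.452). Cxcr2 had 1, 1, 0 and 0 counts in non-senescent and 1, 3, 1 and 1 counts in senescent PTEC, and it did not pass the filter on low counts. A floor of 3 counts corresponds to 0.0810 to 0.118 CPM in these libraries, so a lower level of Cxcr2 was not detectable at this depth. This floor covers counting error only.

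Cd74 itself had 3, 11, 14 and 7 counts in the non-senescent cultures and 60, 49, 206 and 72 counts in the senescent cultures. The groups did not overlap, and the log2 fold change was 3.22 (95% CI 1.97 to 4.46) with an adjusted p of 0.00147. In senescent PTEC it was at 1.64 to 5.57 CPM, and per kilobase of exons its level of 0.759 to 2.62 was below the 84.3 to 162 of Mif in the same cultures. Markers of other cells moved beside these changes. The sum of 12 fibroblast and pericyte markers was 159 to 328 CPM in non-senescent and 627 to 1337 CPM in senescent PTEC, with 7 markers called higher and 1 lower. The sum of 12 leukocyte markers was 39.3 to 60.2 CPM and 34.5 to 54.4 CPM, with 4 of 9 tested markers called lower, led by Coro1a (log2 fold change -1.78), and 1 called higher. That of 14 macrophage markers was 104 to 177 CPM and 76.5 to 292 CPM, with 1 of 12 tested called lower and 0 higher. The sum of 12 T and B cell markers was 2.27 to 4.08 CPM and 2.64 to 3.04 CPM. Most of it was Lck, a kinase of T cells, with 63 to 96 counts per culture, while Cd3d and Cd3g, components of the T cell receptor complex, were at 0 in all 8 cultures.

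Markers of the nephron segments were lower in senescent PTEC where they were called, apart from those of the glomerulus. Of 6 tested proximal tubule markers 3 were called lower and 0 higher, with a median log2 fold change of -1.67, led by Slc27a2, a fatty acid transporter (log2 fold change -3.51). Their sum overlapped between groups and held much Lrp2, a receptor for protein uptake that was not called, with means of 203 and 227 CPM. Of 4 tested markers of the loop, distal tubule and collecting duct 3 were called lower and 0 higher, and their sum went from 9.65 to 45.9 CPM down to 1.38 to 3.03 CPM without overlap. Of 12 neutrophil markers only 2 were tested, and both were called lower. They were led by Ly6g (log2 fold change -2.43), which was at 0.427 to 0.902 CPM in non-senescent PTEC. Ltf, an untested marker of this list, went the other way, with 1 to 3 counts per non-senescent and 8 to 39 counts per senescent culture. Of 6 tested podocyte and parietal cell markers 3 were called higher and 0 lower. Of 12 endothelial markers 1 was called higher and 1 lower. Of 12 tubular injury markers 3 were called higher, led by Timp2 (log2 fold change 1.52), and 4 lower, led by Krt20 (log2 fold change -1.32). The part of all these markers in the changes of Mif, Ddt and Cd44 was not tested.

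**Figure D1:**
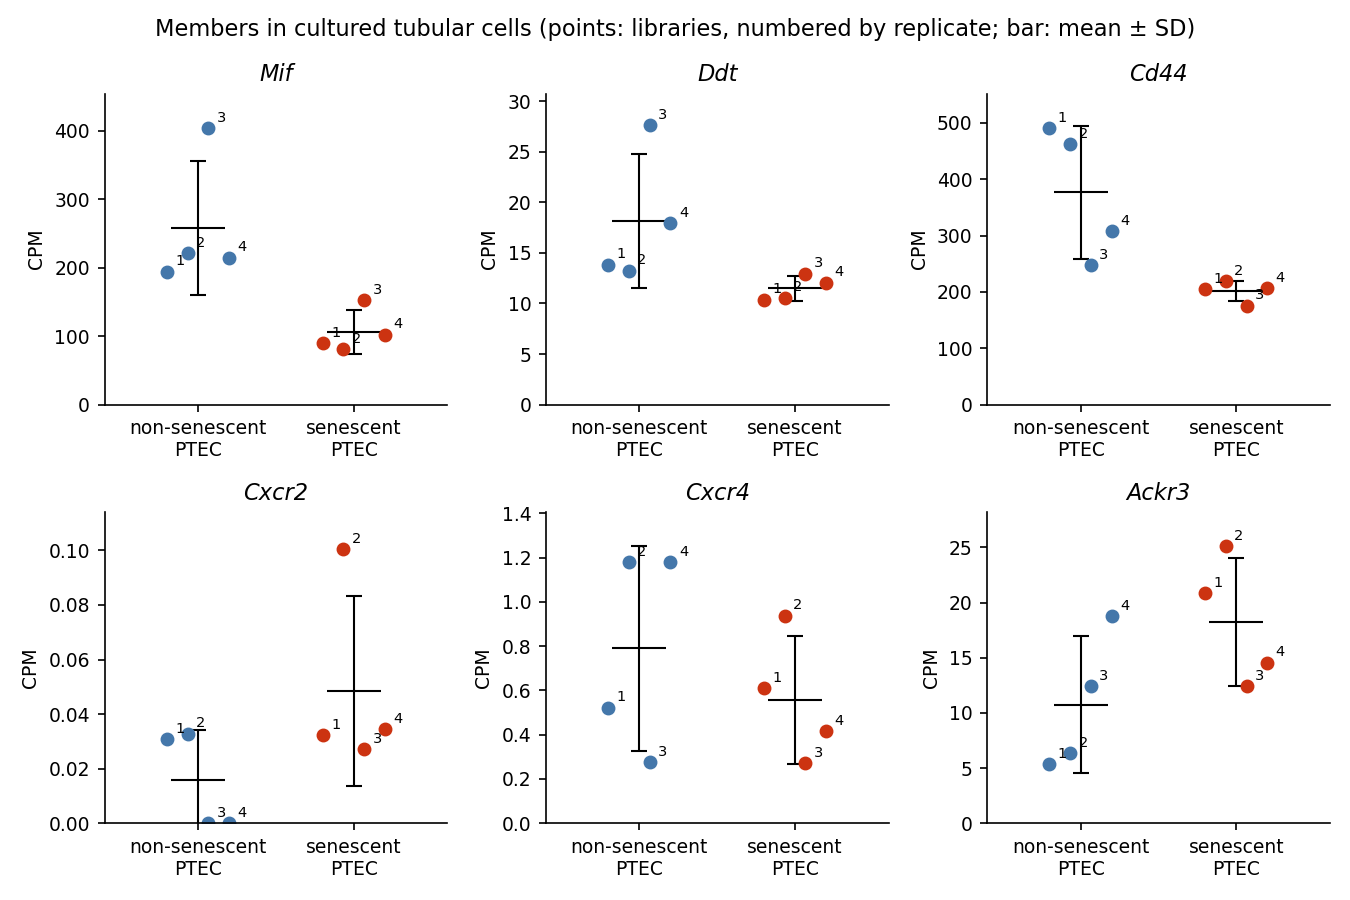
Level of each gene in CPM (y axes from 0, a different scale per gene) in 4 non-senescent (blue) and 4 senescent (red) PTEC cultures. Points are cultures with their replicate numbers, the line is the mean and the bar 1 SD, cut at 0 for Cxcr2. Mif, Ddt and Cd44 do not overlap between groups, while Cxcr2, Cxcr4 and Ackr3 do.

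The genes of the surrounding pathway were taken from 6 lists. Among 9 ligands of CXCR2, CXCR4 and ACKR3, 7 were tested and 5 were called lower in senescent PTEC, with 0 called higher and a median log2 fold change of -1.97, beside -0.00201 over all genes tested. All 5 are neutrophil-attracting chemokines that bind CXCR2. Cxcl2, with the largest fall, went from 17.8 to 31.0 CPM down to 1.19 to 3.11 CPM (log2 fold change -3.71, adjusted p = 4.97e-05). Cxcl12, the ligand that CXCR4 and ACKR3 share, was at 5.77 to 25.9 CPM and 5.40 to 20.8 CPM and did not pass the test (log2 fold change -0.26, adjusted p = 0.692).

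Of 18 tested hyaluronan genes and partners of CD44, 4 were called higher and 3 lower, close to the shares over all genes tested (20.1% and 19.7%), and the median log2 fold change was -0.06. Cemip, which takes part in the breakdown of hyaluronan, rose from 0.853 to 1.44 CPM to 8.02 to 23.5 CPM (log2 fold change 3.80, adjusted p = 4.97e-05). The largest fall was that of Has2, a hyaluronan synthase, from 1.49 to 5.28 CPM to 0.322 to 1.35 CPM (log2 fold change -2.17, adjusted p = 0.00977). Hyal1, a lysosomal hyaluronidase, rose with a log2 fold change of 1.75 (adjusted p = 0.000662).

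Among genes of CD74 and its processing, 2 of 6 tested were called higher and 1 lower. Besides Cd74, Ctsl (cathepsin L) rose with a log2 fold change of 0.99 (adjusted p = 0.00236), and Lgmn (legumain) fell by 0.75 on the log2 scale (adjusted p = 0.0343). Of 6 intracellular partners of MIF, 3 were called lower and 0 higher, with a median log2 fold change of -0.58. Txn1 (thioredoxin) fell the most, from 320 to 720 CPM to 198 to 284 CPM (log2 fold change -1.16, adjusted p = 0.00413).

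Of 7 factors listed as binding the MIF promoter or opposing MIF, 1 was called higher and 1 lower. Uhrf1, which maintains DNA methylation in dividing cells, is described as an activator at the human MIF promoter. It fell from 111 to 204 CPM to 11.4 to 12.995 CPM (log2 fold change -3.72, adjusted p = 3.49e-06). Whether it acts on Mif in these mouse cells was not tested. Dusp1, a phosphatase that glucocorticoids induce and MIF opposes, rose from 51.3 to 72.1 CPM to 133 to 203 CPM (log2 fold change 1.41, adjusted p = 0.000176). Creb1, whose product binds the cyclic AMP response element, did not pass the test (log2 fold change -0.26, adjusted p = 0.370). Of 16 genes of receptor signalling, 1 was called higher and 4 lower. These were led by Grk5, a receptor kinase (log2 fold change 0.67, adjusted p = 0.00986), and Syk, a tyrosine kinase downstream of CD74 (log2 fold change -1.45, adjusted p = 0.000593).

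**Figure D2:**
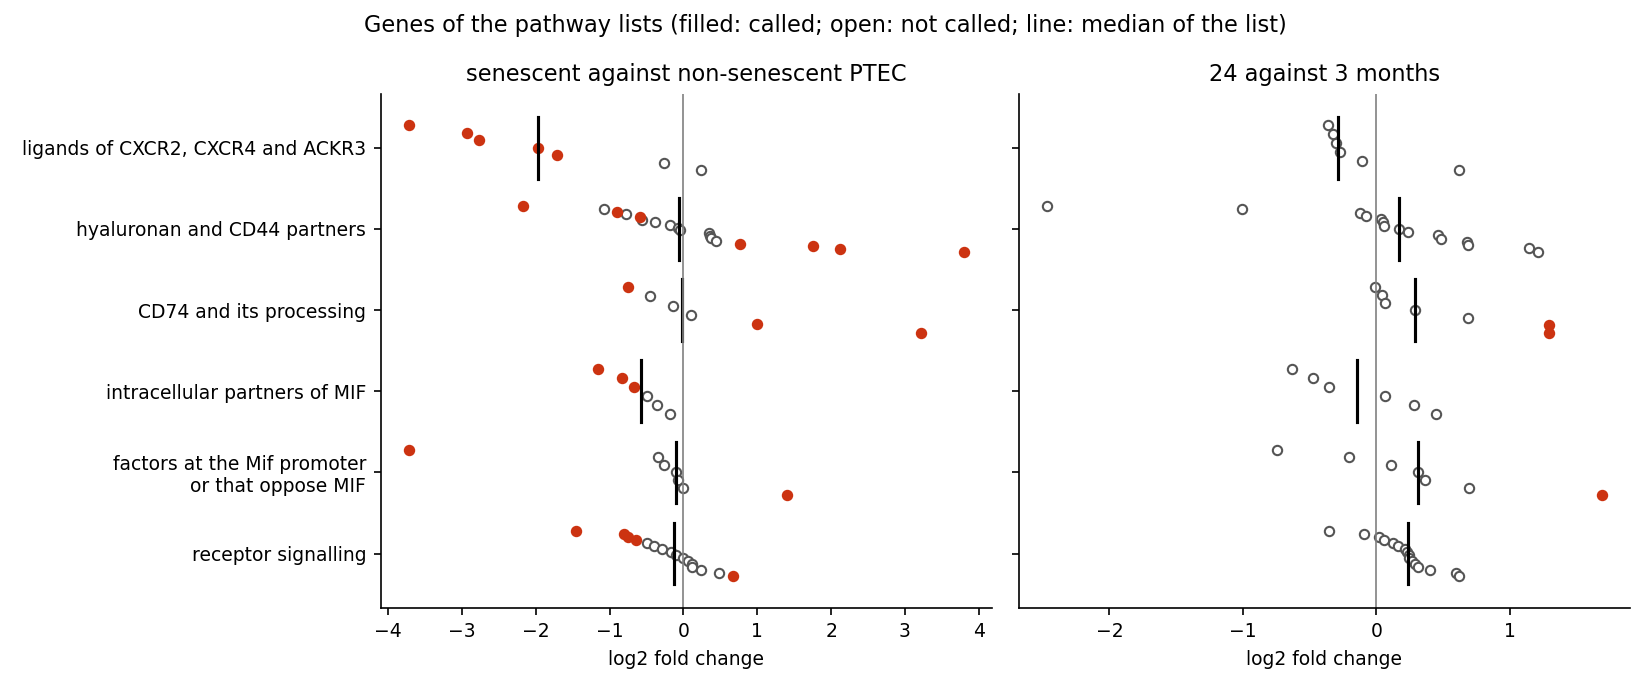
Fitted log2 fold change (x axis) of every tested gene in 6 pathway lists (y axis) for senescent against non-senescent PTEC and for kidneys at 24 against 3 months. Filled points are called genes, open points are not called, and the black line is the median of the list. In PTEC the receptor ligands lie to the left with a median of -1.97, and in kidneys it is -0.29 with none called.

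In kidneys the comparison asks whether the same genes changed with age. None of the 6 members was called between any of the ages, while Cd74 was called higher at 24 than at 3 months. For 24 against 3 months 1.89% of 17067 genes were called higher and 0.451% lower, and 2 of 6 members had an unadjusted p under 0.05 with edgeR, beside 18.2% of all genes. For 12 against 3 months 1.22% were called higher and 1.36% lower, with 0 of 6 members and 16.5% of all genes at an unadjusted p under 0.05. For 24 against 12 months 0.896% were called higher and 0.434% lower, with 2 of 6 members and 15.2% of all genes at an unadjusted p under 0.05. In both counts of 2, 1 was Cxcr2, which passed the filter on low counts only through the 3 kidneys in which it was highest (24-month-old kidneys 1 and 2 and 3-month-old kidney 3), so these counts say nothing of the members as a group. The shares over all genes moved with single kidneys. At 24 against 3 months 399 genes were called, but 74 without 3-month-old kidney 1 and 794 without 3-month-old kidney 2. At 12 against 3 months 441 genes were called, but 63 and 716 without the same kidneys. The comparisons share the libraries of an age and are not independent of each other. The 3-month-old kidneys were counted on 54146 gene identifiers and the older kidneys on 55401, and the 3-month-old kidneys had fewer counted reads. In comparisons with 3 months any effect of this cannot be told apart from that of age. In a bulk sample of whole kidney, fewer cells of a type and less RNA per cell cannot be told apart.

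Mif was expressed at 208, 219 and 179 CPM in 3-month-old, at 178, 122 and 167 CPM in 12-month-old and at 183, 168 and 203 CPM in 24-month-old kidneys. The ranges of 3 and 24 months overlapped, and so did those of 3 and 12 months on the common scale of all 17 libraries, whereas on the scale used here they only just separated. The log2 fold change was -0.13 (95% CI -0.52 to 0.27, adjusted p = 0.670) at 24 and -0.37 (95% CI -0.77 to 0.02, adjusted p = 0.341) at 12 against 3 months. Ddt was at 129, 111 and 171 CPM, at 104, 144 and 102 CPM, and at 96.5, 124 and 104 CPM at the same ages. Its groups overlapped at each pair of ages, with a log2 fold change of -0.34 (95% CI -0.82 to 0.14, adjusted p = 0.391) at 24 against 3 months.

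Cd44 was low in whole kidney, at 1.71, 1.35 and 2.70 CPM at 3 months, 2.34, 2.75 and 2.39 CPM at 12 months and 3.65, 4.42 and 2.98 CPM at 24 months. Each 24-month-old kidney lay above every younger kidney. The log2 fold change at 24 against 3 months was 0.94 (95% CI 0.32 to 1.56), with an unadjusted p of 0.00755 and an adjusted p of 0.126, and did not pass the test. With DESeq2 and the settings of the study the adjusted p was 0.0395. Over the other alternatives and each kidney left out in turn it lay between 0.0619 and 0.371. The sum of 12 leukocyte markers was 79.1 to 93.9 CPM at 3 months, 121 to 128 CPM at 12 months and 130 to 182 CPM at 24 months, and 2 of these markers were called higher at 24 against 3 months. Of 12 T and B cell markers 5 were called higher. The sum of 12 fibroblast and pericyte markers was 219 to 247 CPM at 3 months and 290 to 347 CPM at 24 months, with 11 of 12 above 0 and none called. Of 12 tubular injury markers 2 were called higher, led by Vcam1 (log2 fold change 1.58), an adhesion molecule. The part of these markers in the level of Cd44 was not tested.

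Cxcr2 was near the limit of detection, with 1, 3 and 9 counts at 3 months, 3, 3 and 2 counts at 12 months and 26, 46 and 7 counts at 24 months. In this group 2 kidneys stood above all others, and the third lay within the range of 3 months. Relative to library size, the summed counts at 24 months were 8.56 times those at 12 months (exact interval 4.14 to 20.5) and 4.06 times those at 3 months (2.25 to 7.97), where the intervals cover counting error and not the spread between mice. Since Cxcr2 entered the fit through the kidneys in which it was highest, its fitted values are given as a description and not as a test of age. Over the mice, the log2 fold change was 3.04 (95% CI 1.19 to 4.89, adjusted p = 0.120) against 12 months and 2.01 (95% CI 0.27 to 3.74, adjusted p = 0.221) against 3 months. With DESeq2 and the settings of the study the former was 3.10 with an adjusted p of 0.0394. Without 24-month-old kidney 2 the log2 fold changes were 2.38 and 1.35. Over all kidneys left out in turn they ranged from 2.38 to 3.48 against 12 months and from 1.35 to 3.08 against 3 months, the latter without 3-month-old kidney 3.

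The sum of 12 neutrophil markers was high in the same kidneys as Cxcr2, a receptor of neutrophils. It was 1.92, 0.881 and 11.8 CPM at 3 months, 1.70, 3.31 and 1.99 CPM at 12 months and 10.2, 16.8 and 2.55 CPM at 24 months. The 3 kidneys with the most Cxcr2 counts were also those with the highest sums, while Mpo and Elane, made in immature neutrophils, had at most 3 counts in every kidney. On average most of the sum was S100a8 and S100a9, with means of 1.43 and 2.39 CPM at 3 months and 3.10 and 4.40 CPM at 24 months. Ly6g, Ngp, Camp and Cxcr1 had at most 7 counts in every kidney. The part of neutrophil RNA in the level of Cxcr2 was not tested.

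No change of Cxcr4 with age passed the test. It stood at 2.73, 1.97 and 4.21 CPM at 3 months, 1.995, 4.44 and 3.07 CPM at 12 months and 3.27, 4.09 and 1.44 CPM at 24 months. The groups overlapped fully, and the log2 fold change at 24 against 3 months was -0.02 with a 95% CI of -1.02 to 0.99, which leaves its direction undetermined (adjusted p = 0.985).

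Ackr3 had the most RNA of the 3 chemokine receptors in kidney, also per length, at 45.2, 39.6 and 53.1 CPM at 3 months, 29.4, 54.9 and 24.8 CPM at 12 months and 62.1, 60.2 and 50.7 CPM at 24 months. The ages overlapped, and 12-month-old kidney 2 was apart from the other 2 of its age. The log2 fold change was 0.33 (95% CI -0.31 to 0.96, adjusted p = 0.507) at 24 against 3 months. At 24 against 12 months it was 0.66 (95% CI 0.03 to 1.30), with an unadjusted p of 0.0423 and an adjusted p of 0.309. It ranged from 0.46 without 12-month-old kidney 3 to 1.09 without 12-month-old kidney 2, with adjusted p from 0.0605 to 0.639 over the kidneys left out in turn. In 12-month-old kidney 2 the sum of 12 proximal tubule markers was 14144 CPM, beside 20735 and 21663 CPM in the other 2. That of 8 podocyte and parietal cell markers was 151 CPM, beside 303 and 338 CPM. At 24 against 12 months 11 of 12 tubular injury markers had a log2 fold change above 0. Of these, 2 were called higher, led by Krt19 (log2 fold change 3.49). The part of these markers in the level of Ackr3 was not tested. Among 12- and 24-month-old kidneys of the same number, Mif, Cd44, Cxcr2, Ackr3 and Cd74 were higher at 24 months in 3 of 3 comparisons. Ddt and Cxcr4 were higher in 1 of 3. No source used here states that these kidneys were paired. With a block on the number over the kidneys of all ages, the log2 fold change of Ackr3 was 0.71 (adjusted p = 0.447), and no member was called. This block also tied in the 3-month-old kidneys, so pairing of 12- with 24-month-old kidneys alone was not tested.

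**Figure D3:**
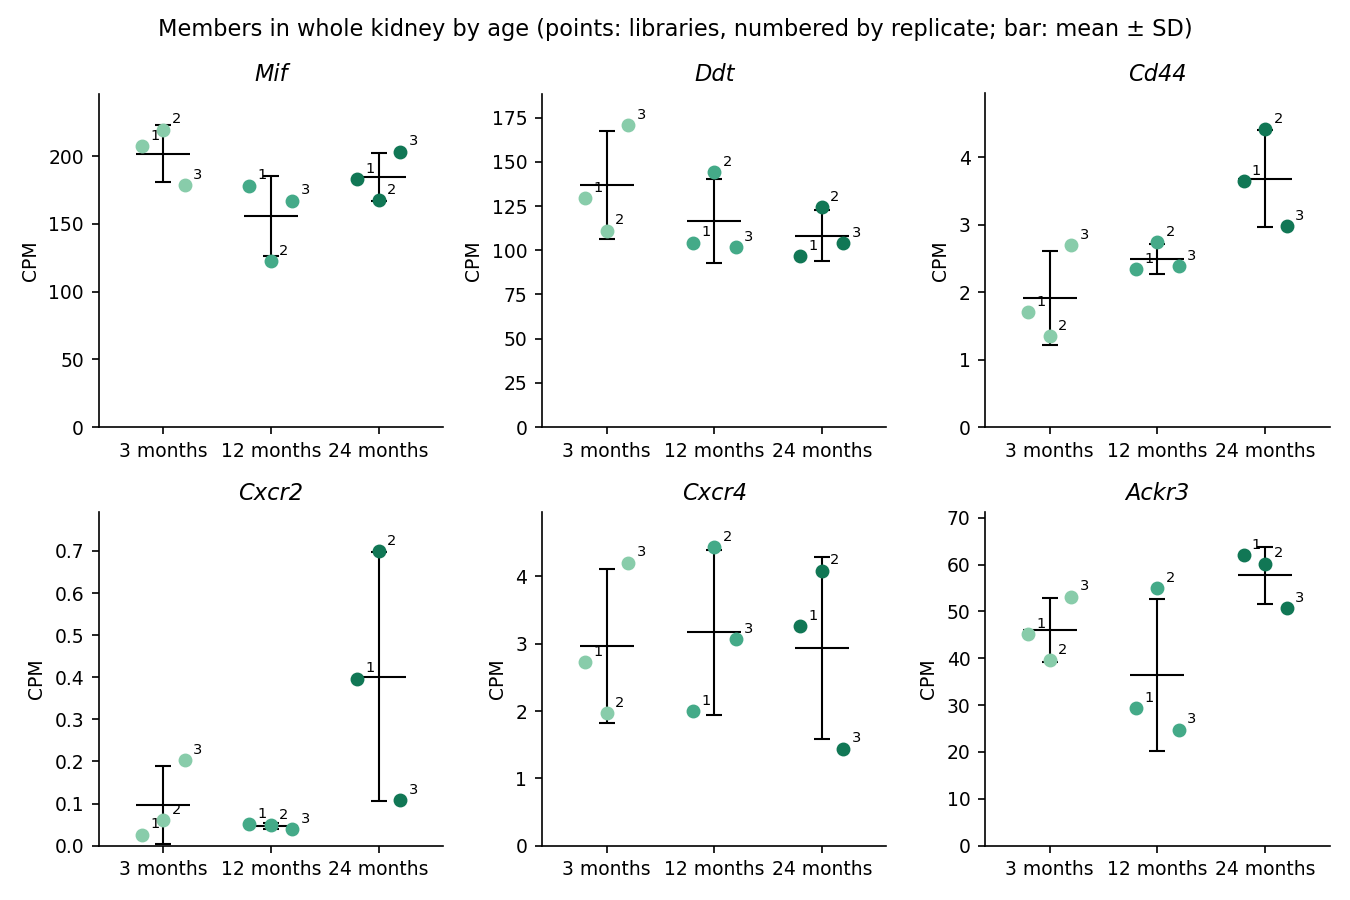
Level of each gene in CPM (y axes from 0, a different scale per gene) in whole kidneys of 3, 12 and 24 months, 3 mice per age. Points are kidneys with their replicate numbers, the line is the mean and the bar 1 SD. Cd44 at 24 months lies above both younger ages, and Cxcr2 is high in kidneys 1 and 2 of that age.

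Cd74 was at 125, 182 and 122 CPM at 3 months, 290, 189 and 317 CPM at 12 months and 440, 289 and 326 CPM at 24 months. The 24-month-old kidneys were all above the 3-month-old kidneys, with a log2 fold change of 1.30 (95% CI 0.71 to 1.89, adjusted p = 0.0400). This call was not checked under the alternatives or with kidneys left out. Cd74 was not called at 12 against 3 months (log2 fold change 0.89, adjusted p = 0.117). Nor was it called at 24 against 12 months (log2 fold change 0.41, adjusted p = 0.480). The gene identifier of Cd74 occurred in 2 versions over the libraries, unlike those of the members, and the effect on its level was not tested. Of 7 genes of CD74 and its processing, 2 were called higher, Cd74 and Ctss, the cathepsin that makes the last cut of the CD74 protein in antigen-presenting cells. Ctss was at 8.48 to 13.3 CPM at 3 months and 21.5 to 30.8 CPM at 24 months (log2 fold change 1.30, adjusted p = 0.0152). The sum of 14 macrophage markers was 131 to 205 CPM at 3 months, 206 to 234 CPM at 12 months and 230 to 309 CPM at 24 months. Of 13 tested, 12 had a log2 fold change above 0 at 24 against 3 months and 2 were called higher, led by Mpeg1 (log2 fold change 1.47). The 5 T and B cell markers called higher were led by Cd79a, a part of the B cell receptor (log2 fold change 2.86), and the sum of that list was 5.47 to 9.90 CPM at 3 months and 25.1 to 111 CPM at 24 months. Of 12 proximal tubule markers 4 were also called higher and 0 lower at 24 against 3 months, led by Slc5a2, a glucose transporter (log2 fold change 1.88), with 10 of 12 above 0. Their part in the levels of Cd74 and Ctss was not tested.

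The other pathway lists held few calls with age. Of 6 tested ligands of CXCR2, CXCR4 and ACKR3 none was called between any of the ages. Cxcl12 stood at 100 to 116 CPM at 3 months, 123 to 206 CPM at 12 months and 69.95 to 110 CPM at 24 months, with an adjusted p of 0.426 for 24 against 3 months. None of 15 tested hyaluronan genes and partners of CD44, 6 intracellular partners of MIF and 16 signalling genes was called either. Of the 7 factors listed as binding the MIF promoter or opposing MIF, Dusp1 was called higher at 24 against 3 months (log2 fold change 1.69, adjusted p = 0.0471). Uhrf1 was called higher at 24 against 12 months (log2 fold change 1.51, adjusted p = 0.0443).

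Comparing non-senescent PTEC with 3-month-old kidneys places the genes between cultured tubular cells and the organ. These values come from a fit of all 17 libraries on common scaling, in which culture, cell composition and experiment differ together and cannot be told apart. Of 5 members tested 1 was called higher in PTEC and 3 lower. Over all 17999 genes tested 32% were called higher and 35.5% lower.

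Cd44 was 127-fold higher in non-senescent PTEC than in 3-month-old kidney, with 197 to 395 CPM against 1.66 to 3.35 CPM on this common scale (log2 fold change 6.99, 95% CI 6.28 to 7.70, adjusted p = 2.08e-11). Ddt was 11.7-fold lower in PTEC, with 10.5 to 21.9 CPM against 136 to 212 CPM (log2 fold change -3.55, adjusted p = 1.62e-09). Mif differed from this, with 156 to 321 CPM in PTEC and 221 to 269 CPM in kidney and a log2 fold change of -0.27 (95% CI -0.81 to 0.26, adjusted p = 0.346). Its direction turned to 0.32 when library totals were used without scaling, and without non-senescent culture 3 it was called lower, with a log2 fold change of -0.57 and an adjusted p of 0.0257. Ackr3 was 6.67-fold and Cxcr4 5.80-fold lower in PTEC (log2 fold changes -2.74 and -2.53, adjusted p = 6.11e-06 and 0.000249). Cd74 was lower by far, with a log2 fold change of -9.48 (adjusted p = 8.49e-11). Of 12 leukocyte markers 10 were called lower in PTEC and 0 higher, and of 14 macrophage markers 9 lower and 1 higher. Of 12 T and B cell markers 11 were called lower and 1 higher. All 12 proximal tubule markers were called lower, while of 12 tubular injury markers 10 were called higher and 1 lower. The part of these markers in the levels of Cd74 and the members was not tested. Cxcr2 was not tested here, as it did not pass the filter on low counts.

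**Figure D4:**
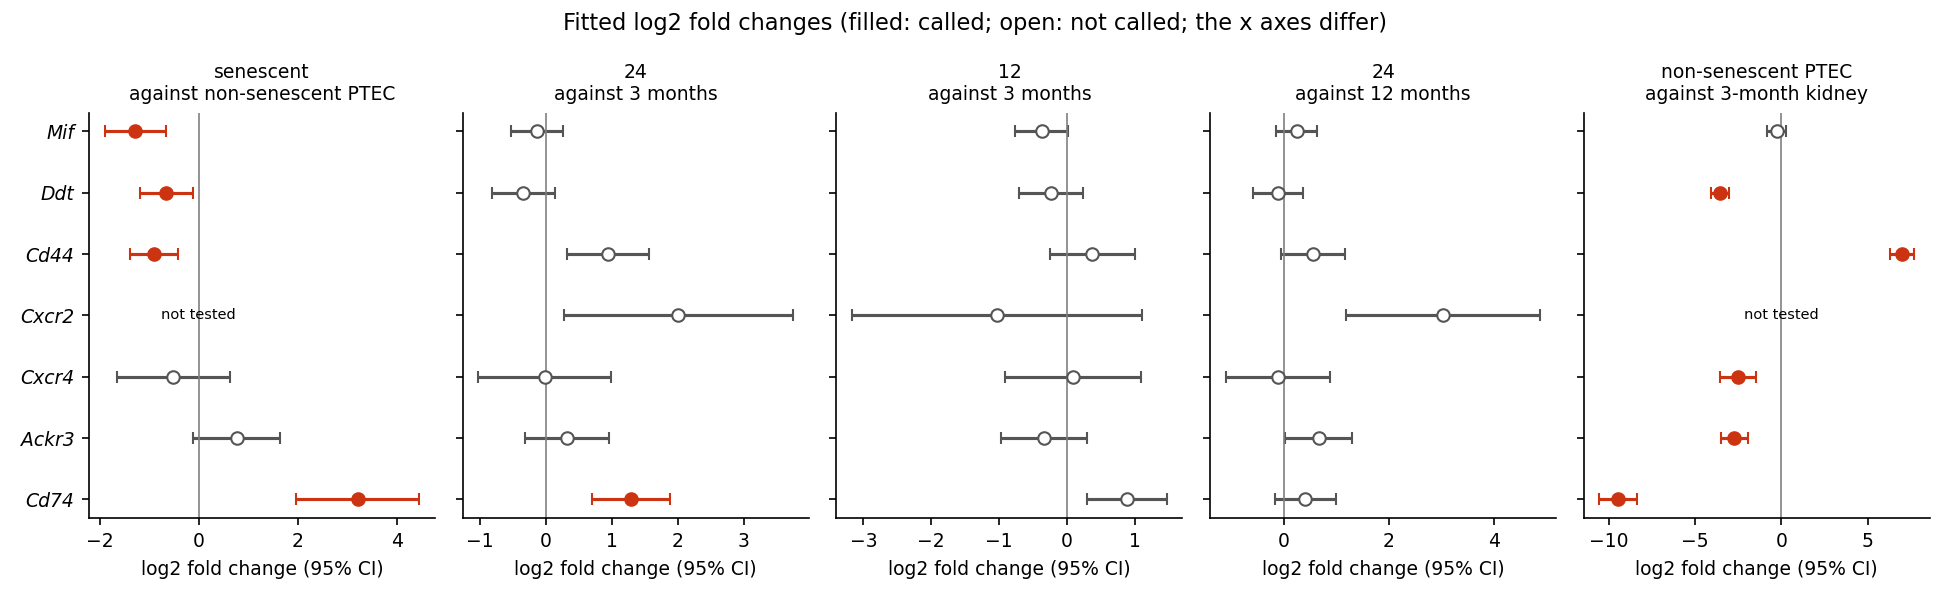
Fitted log2 fold change with its 95% confidence interval (x axes, which differ between panels) for each gene (y axis) in 5 comparisons. Filled red points are called and open grey points are not. Mif, Ddt and Cd44 are called lower in senescent PTEC, none of the 6 members is called with age, and Cd44 stands 6.99 above kidney in non-senescent PTEC.

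Levels of different genes were compared per kilobase of exons, on the common scale of all 17 libraries. Mif had the highest mean level of the 6 members in all 5 groups when all exon bases were used, with 276 ± 104 CPM per kilobase in non-senescent PTEC (SD, n = 4), 112 ± 34.7 in senescent PTEC (SD, n = 4) and 334 ± 33.2 in 3-month-old kidneys (SD, n = 3). In kidneys Ddt came next, with 219 ± 49.9 CPM per kilobase at 3 months (SD, n = 3), while in non-senescent PTEC it was at 18.7 ± 6.78 (SD, n = 4), below Cd44 at 44.3 ± 14.1 (SD, n = 4). The ratio of Mif to Ddt per length was 12.4 to 17.3 in non-senescent PTEC, 7.93 to 12.2 in senescent PTEC and 0.881 to 2.05 over the 9 kidneys. If no read of the exon shared with Gm20441 had been counted, the level of Ddt over its 541 other exon bases would be 269 CPM per kilobase at 12 months, above the 261 of Mif, while in the other 4 groups Mif would still be higher. This length was tried after seeing the data. Among receptors, Cd44 exceeded Ackr3 per length by 4.31 to 45.4 times in PTEC, whereas in kidneys it was 0.0169 to 0.0478 times the level of Ackr3.

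On this common scale the order of the groups differed between genes. The means of Mif ran from 3-month-old over 24-month-old kidneys, non-senescent PTEC and 12-month-old kidneys down to senescent PTEC, and only the last step lay outside the ranges of its neighbours. Ddt was highest in the 3 kidney groups, whose ranges overlapped, and then lower without overlap in non-senescent and again in senescent PTEC. Cd44 fell without overlap from non-senescent PTEC to senescent PTEC, to 24-month-old kidneys and to 12-month-old kidneys, which overlapped with 3-month-old kidneys. Ackr3 and Cxcr4 were higher in kidneys of each age than in PTEC, with overlap among ages and between the PTEC groups.

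**Figure D5:**
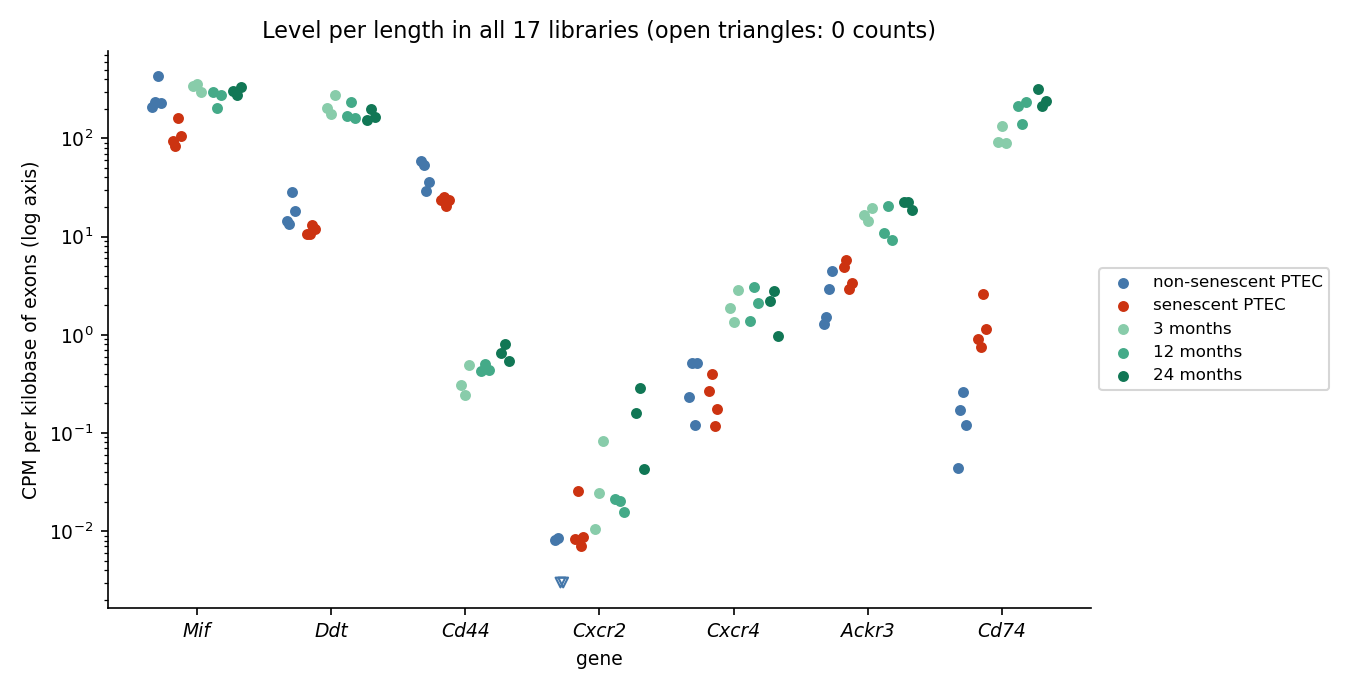
Level of each gene in CPM per kilobase of exons (log y axis) in all 17 libraries, coloured by group. Open triangles stand for 0 counts of Cxcr2. Mif lies at 84.3 to 431 throughout, whereas Ddt, Cd44 and Cd74 differ widely between PTEC and kidneys.

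For each member with a mean of at least 1 CPM, the 2 genes with the most similar profile over the 17 libraries were found among 13939 genes, by the mean absolute difference in centred log2 CPM. As a description, the nearest to Mif were Aldoa (0.15), a glycolytic aldolase, and Ftl1 (0.16), the ferritin light chain, where Mif itself deviated from its mean by 0.54 on average. Ddt, with an average deviation of 1.85, was nearest to Endog (0.15), a mitochondrial nuclease. The nearest to Cd44 were Etv4 (0.38) and Adam12 (0.39), at an average deviation of 3.02. Cxcr4 was nearest to Itgb8 (0.32) and Icam2 (0.33), and Ackr3 to Me3 (0.29) and 1700101I11Rik (0.31), at average deviations of 1.39 and 1.22.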

How the data were processed

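Stranded poly(A) libraries were sequenced in paired-end reads. The authors ran nf-core/rnaseq and deposited raw read counts for each gene. Which tool counted the reads, and with which strand setting, is not given in the sources used here. PTEC, 3-month-old and older kidneys were counted on 3 gene sets, where the study states GENCODE M 18 (GRCm38). GENCODE M 21 gave symbols and positions, and promoter sequences from RefSeq (GRCm38.p6).

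Counts were compared in R 4.3.3 with edgeR 4.0.16 (TMM, filterByExpr, robust quasi-likelihood test, Benjamini-Hochberg adjustment over all genes tested), and DESeq2 1.42.0 was an alternative. All adjusted p-values are from edgeR unless DESeq2 is named. PTEC and kidneys were fitted apart, the 3 ages together, and all 17 libraries together for culture against kidney. The call rule is given in the report. The fits were tested on simulated data. Tables and figures were made in Python 3.11.15. The members and lists were chosen with earlier results of these data known. Named genes are the members, Cd74, copies and overlapping genes, the largest called rise and fall of each pathway list, and the 2 nearest profiles. One of the nearest profiles is not reported here. Cxcl12, Hyal1, Ctsl, Creb1 and the marker genes were named besides these after their values were seen.

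As a check of pairing, same-numbered PTEC cultures deviated together from their group means, with r from 0.186 to 0.614 over 4 pairs. For 12- and 24-month-old kidneys of the same number r was 0.172 to 0.557 over 3 pairs. Differently numbered samples were not correlated, and no source used here states a pairing. Whether the numbers pair the samples was therefore not tested. The main fits used no block, and a block on the number was an alternative. Between 3- and 24-month-old kidneys r was -0.420 to -0.0336, and between 3- and 12-month-old kidneys -0.701 to -0.0486, so these numbers were not taken as pairs.

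Scalings, filters, thresholds and tools were varied, a replicate block was added, and each library was left out in turn. The study's other assays were not analysed here.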

Additional observations from a re-analysis of the deposited data

Results flagged for a closer look

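In the groups of 4 PTEC cultures, 2 values stood apart from the rest of their group by a gap above Dixon's critical value at the 95% level. Mif in non-senescent culture 3 was at 404 CPM, with 194 to 221 CPM in the other cultures of the group. Cxcr2 in senescent culture 2 was at 0.1005 CPM, which is 3 counts beside 1 count in each of the others. Chance flags about 5% of groups where values are continuous and normally distributed, and 12 groups were examined. For counts as low as those of Cxcr2 this rate does not hold. Kidney groups of 3 were too small for this rule.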

How the results depend on the processing

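With an absolute log2 fold change above 1 required, 1 member (Mif) was called in senescent PTEC in place of 3. With DESeq2 and the study's settings 1 member was called at 24 against 3 months (Cd44) and 1 at 24 against 12 months (Cxcr2) in place of 0. For Cxcr2 this rested on 26, 46 and 7 counts at 24 months beside 3, 3 and 2 counts at 12 months. It is given as a description and not as a test of age. With each library left out in turn, 2 to 3 members were called in senescent PTEC, 0 between ages and 4 to 5 in PTEC against kidney. In the replicate block, which pairs samples by number, 3 members were called in senescent PTEC and 0 between ages, and the block changed no call of a member. Between ages the block also tied in the 3-month-old kidneys, whose numbers were not taken as pairs. Pairing of 12- with 24-month-old kidneys alone was not tested. The adjusted p of Ddt in senescent PTEC was 0.0707 with upper-quartile scaling, 0.0522 with a mean of at least 1 CPM required and 0.0592 with library totals without scaling, an alternative chosen after seeing the data. With library totals without scaling the log2 fold change turned for Mif in PTEC against kidney (0.32) and for Cxcr4 at 24 against 3 months (0.0116). When 1 library was left out, the log2 fold change, never called, lay on both sides of 0 for Cxcr4 (-0.33 to 0.32 for 24 against 3, -0.23 to 0.43 for 12 against 3 and -0.42 to 0.22 for 24 against 12 months), for Cxcr2 at 12 against 3 months (-1.43 to 0.0404) and for Ddt at 24 against 12 months (-0.22 to 0.0693). The cause was not tested. Of 475 values of members under alternatives, 450 kept their direction and side of the thresholds. The calls of Cd74 and of the listed pathway and marker genes were not checked in this way. Counts of Cxcr2 in all libraries and of Cxcr4 in PTEC limit what these libraries can show.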
